A study of Rattus norvegicus with 16 samples.

Results

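Immediate early genes are switched on within minutes of a stimulus, without new protein being made first, and their transcripts decay soon after. In neurons, calcium entry and growth factor signalling reach them through the kinases ERK and CaMK, which activate the factors SRF with its ELK partners and CREB at their promoters. In the brain they are the usual record of recent neuronal activity, and in the hypothalamus they respond to salt load, feeding and stress. The 9 genes described here are *Fos* and *Junb*, subunits of the AP-1 transcription factor, *Egr1* and *Egr2*, zinc finger transcription factors, and *Nr4a1*, an orphan nuclear receptor. To these come *Arc*, a synaptic protein, *Dusp1*, a phosphatase that switches off MAP kinases, *Ier2*, a nuclear protein, and *Btg2*, an antiproliferative gene. Probe sets were taken by gene symbol from the platform's table. That gave 11 probe sets for 8 of the 9 genes, out of 31042 probe sets and 14217 named genes in all. No probe set was annotated to *Btg2*, which was not analysed here.

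The signals came from the diencephalon, the thalamus and hypothalamus, of 16 male Sprague-Dawley rats, 1 Affymetrix array per rat and 4 rats per group, all started at 5 weeks of age. The ZD rats were kept zinc-deficient for 10 days on food holding 0.6 mg of zinc in each kg. Their controls (PF) were pair-fed, which means that they got control food, at 30 mg of zinc in each kg, in the quantity that ZD rats ate. Recovery rats (ZR) had the same 10 days of deficiency followed by 6 days on 13 g of the control diet, and ZRPF rats had 10 days of pair-feeding followed by the same 6 days. All 4 groups were offered 300 mM NaCl for 48 h from day 6 to day 8, and the ZR and ZRPF groups a second time from day 14 to day 16, the end of their experiment. The hour of tissue collection is not given in the sources used here. Each experiment began with 9 rats on the deficient diet and 6 pair-fed. From the second, 3 ZR rats and 1 ZRPF rat were left out for their salt preference. The submitters then chose 4 rats per group as average in weight, zinc and salt preference. The spread among these rats, against which the tests set the group differences, is therefore not that of all rats.

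Values are MAS5 signals, the linear intensity that the Affymetrix MAS5 method gives each probe set, scaled by the authors to a trimmed mean of 500.13 to 500.15 in every array. Median signals ran from 157 to 173 per array. Signals of rats in the same group correlated at 0.944 to 0.961, and no pair was identical. Markers of the labelled tissue were bright, with all 11 thalamus markers and 10 of 12 hypothalamus markers past the filter. Cortex and hippocampus markers, which the dissection could carry over, were past it in 7 of 15. These were *Slc17a7*, *Nrgn*, *Hpca*, *Neurod1*, *Bcl11b*, *Dkk3* and *Lmo4*. Those below included *Emx1*, *Tbr1* and *Neurod6*, which define cortical neurons. Striatum markers were past the filter in 5 of 7. The ratio of 3' to 5' signal of *Actb*, a check of RNA length, was 2.59 to 3.31 in the 10-day arrays and 4.14 to 5.59 in the 16-day arrays. In bulk tissue, fewer cells of a type and less RNA per cell cannot be told apart.

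A probe set was tested when its mean log2 signal over the 16 arrays reached the median over all probe sets, 7.35 (a signal of 163). In this way 4 of the 11 probe sets were tested, 1 each for *Fos*, *Egr1*, *Nr4a1* and *Dusp1*. Those of *Junb*, *Egr2*, *Arc* and *Ier2* lay below, as did second probe sets of *Fos* and *Dusp1*, and they are described by their values. Differences are given on the log2 scale with standard errors (SE) from limma, a linear model fitted over all 15521 tested probe sets, and p values were adjusted over all of these.

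The stretch before the transcription start is where SRF, CREB and the EGR factors are known to bind in several genes of this kind. The RefSeq table of promoters (build GRCr8) matched 7 of the 9 genes, *Junb*, *Egr1*, *Egr2*, *Nr4a1*, *Dusp1*, *Ier2* and *Btg2*. Below stand the 250 bases before the start for *Dusp1* (chr10:17184603-17184852, plus strand) and *Nr4a1* (chr7:134259888-134260137, plus strand), which were tested, and for *Egr2* (chr20:21054442-21054691, minus strand), which holds both kinds of site side by side. Capitals mark the short form of the CREB site, the CRE (TGACG, or CGTCA on the other strand), the full CRE TGACGTCA that contains it on both strands, and the CArG box of SRF.

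Dusp1: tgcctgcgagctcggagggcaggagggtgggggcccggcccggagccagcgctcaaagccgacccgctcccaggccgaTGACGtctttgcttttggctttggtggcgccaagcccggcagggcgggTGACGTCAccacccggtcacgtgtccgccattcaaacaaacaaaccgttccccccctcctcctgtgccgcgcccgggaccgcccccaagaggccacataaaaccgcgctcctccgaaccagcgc
Nr4a1: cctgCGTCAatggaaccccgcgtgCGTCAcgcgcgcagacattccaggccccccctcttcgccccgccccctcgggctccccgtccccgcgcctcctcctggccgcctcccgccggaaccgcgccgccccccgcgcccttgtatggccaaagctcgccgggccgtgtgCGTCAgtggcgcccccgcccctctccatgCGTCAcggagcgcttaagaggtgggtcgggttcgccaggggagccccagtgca
Egr2: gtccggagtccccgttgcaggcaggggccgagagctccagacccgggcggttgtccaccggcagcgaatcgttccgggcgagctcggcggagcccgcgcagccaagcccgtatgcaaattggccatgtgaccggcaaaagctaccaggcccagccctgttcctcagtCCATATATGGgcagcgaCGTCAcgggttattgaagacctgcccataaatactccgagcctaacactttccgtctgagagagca

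In these 250 bases *Dusp1* held 1 full CRE, from position -124 to -117 before the start, and a further short site at -172 to -168. *Nr4a1* held 4 short sites, all on the other strand, and 1 EGR site (GCGNGGGCG, both strands searched) at -73 to -65. *Egr2* held 1 CArG box, CCATATATGG, at -83 to -74, and 1 short site at -66 to -62, with *Egr1* holding 2 CArG boxes and 2 short sites. The short site was found in 7 of the 7 matched genes and in 19.0% of 27457 promoters of the same length. A full CRE was found in 3 (*Btg2*, *Dusp1* and *Ier2*; 1.7% of all promoters) and a CArG box in 2 (1.5%). An EGR site was found in 2 of the 7, *Nr4a1* and *Btg2*, against 4.53% of all promoters. The SP1 site GGGCGG stood in 4 of the 7, against 32.4% of all, and in *Nr4a1* 1 of its 3 copies overlapped the EGR site. These matches describe letters in a window and are not evidence of binding.

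The first comparison, ZD against PF, asked how these genes stood after 10 days of zinc deficiency in rats matched for food intake. None of the 4 tested genes passed the threshold of 0.05 in limma, where 0% of 9278 genes did, and 1 of the 4, *Egr1*, had an unadjusted p under 0.05, as did 7.86% of the tested probe sets. The values of *Egr1* were higher in ZD and those of *Fos* and *Dusp1* lower, so the genes did not share a direction.

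*Egr1* (probe set 1368321_at) encodes the zinc finger factor also known as Zif268, which has a high resting level in brain. Its signals in PF rats 1, 2, 4 and 6 were 1624, 1250, 1233 and 875. In ZD rats 2, 3, 8 and 9 they were 1948, 1805, 1175 and 1457. The groups overlapped: ZD rats 2 and 3 were above every PF rat, while ZD rat 8 was below 3 of them and PF rat 6 was the lowest of all 16. The mean log2 signal was 10.25 ± 0.37 (SD, n = 4) in PF and 10.61 ± 0.33 in ZD, a difference of 0.36 ± 0.17 (SE), with a limma adjusted p of 0.615 and a 95% confidence interval from 0.01 to 0.72. It was 0.21 without PF rat 6 and 0.62 without ZD rats 8 and 9, a choice made after the data were seen. Cortex and hippocampus markers were also higher in ZD for 6 of 7 genes tested. The signal summed over the 15 with a probe set, tested or not, was 7634 to 9124 in PF and 7476 to 9595 in ZD. With the mean of the 7 tested markers as a covariate the difference of *Egr1* was 0.19 (adjusted p = 0.806).

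*Fos* (1375043_at) is the partner of the Jun proteins in AP-1 and the most used marker of neuronal activation. PF rats 1, 2, 4 and 6 had signals of 1509, 1489, 1157 and 1231, and ZD rats 2, 3, 8 and 9 had 1613, 1161, 839 and 1010. The highest and the 2 lowest of these 8 signals were those of ZD rats. The log2 difference was -0.25 ± 0.18 (adjusted p = 0.762, interval -0.62 to 0.12), and without ZD rats 8 and 9 it was 0.03.

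*Dusp1* (1368146_at), the feedback phosphatase, is induced both by MAP kinase signals and by glucocorticoids. Its signals were 1654, 2253, 1340 and 1921 in PF rats 1, 2, 4 and 6 and 1611, 2153, 1018 and 861 in ZD rats 2, 3, 8 and 9. ZD rats 8 and 9 lay below all PF rats and the other two within their range. The difference was -0.41 ± 0.23 (adjusted p = 0.693, interval -0.90 to 0.07), and it was 0.08 without ZD rats 8 and 9. *Nr4a1* (1386935_at), also known as Nur77, had 282, 201, 181 and 194 in PF and 306, 251, 158 and 172 in ZD, in the same order of rats. Its groups overlapped, and the difference was 0.01 ± 0.20 (adjusted p = 0.988, interval -0.40 to 0.43), or 0.39 without ZD rats 8 and 9.

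**Figure D1:**
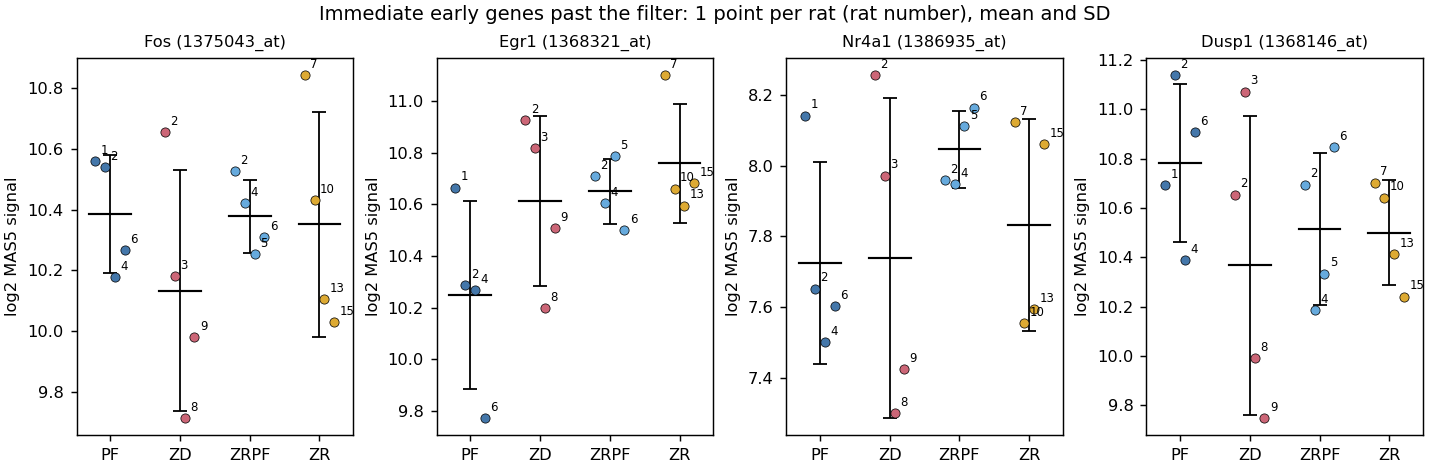
Log2 MAS5 signal of the 4 tested genes by group, with 1 point per rat labelled with its number, the mean as a horizontal line and the SD as a bar. Each panel has its own scale, which does not start at 0. In ZD, rats 2 and 3 lie above rats 8 and 9 in all 4 panels, and the PF and ZD groups overlap in each.

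In all 4 tested genes ZD rats 2 and 3 were above ZD rats 8 and 9. The SD of the log2 signals was 0.33 to 0.61 in ZD and 0.19 to 0.37 in PF over the 4 genes. The ratio of 3' to 5' *Actb* signal was 3.19 and 2.93 in ZD rats 2 and 3 and 2.59 and 2.73 in ZD rats 8 and 9, and the median signals of these arrays were 172, 167, 162 and 160. Between ZD and PF, markers of neighbouring tissue were higher in ZD for 5 of 5 striatum, 8 of 8 meninges and mural cell and 5 of 5 choroid plexus genes tested, beside 55.6% of all genes, with none passing. Thalamus markers were lower in ZD for 10 of 11 (median -0.12), also with none passing. With the mean of the choroid plexus markers as a covariate, *Dusp1* stood at -0.48, *Egr1* at 0.38, *Fos* at -0.15 and *Nr4a1* at -0.04, and none passed in limma. The part of the *Actb* ratio, the median signal and the striatum, meninges and thalamus markers in the results was not tested.

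The second comparison, ZR against ZRPF, was made 6 days into the return to control food. None of the 4 genes passed in limma, against 0.0108% of all genes tested, and none had an unadjusted p under 0.05, as 5.21% of probe sets did. *Nr4a1* had 249, 247, 277 and 287 in ZRPF rats 2, 4, 5 and 6 and 279, 188, 193 and 267 in ZR rats 7, 10, 13 and 15. ZR rats 10 and 13 were below all ZRPF rats and the other two among them, and the difference was -0.21 ± 0.20 (adjusted p = 0.945, interval -0.63 to 0.20).

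*Egr1* had signals of 1676, 1559, 1769 and 1447 in ZRPF and 2196, 1619, 1547 and 1644 in ZR, in the same order of rats. ZR rat 7 was the highest of all 16 rats, and the difference was 0.11 ± 0.17 (adjusted p = 0.959, interval -0.24 to 0.46). For *Fos* the signals were 1475, 1372, 1221 and 1268 in ZRPF and 1837, 1380, 1100 and 1044 in ZR. Here too ZR rat 7 was the highest of the 16, with ZR rats 13 and 15 below all ZRPF rats, and the means differed by -0.03 ± 0.18 (adjusted p = 0.991, interval -0.40 to 0.35). *Dusp1* ran from 1166 to 1840 in ZRPF and from 1210 to 1666 in ZR, a difference of -0.02 ± 0.23 (adjusted p = 0.996, interval -0.50 to 0.47). Striatum markers were lower in ZR for 5 of 5 tested and meninges and mural cell markers for 8 of 8, where 46.9% of all genes were higher. Choroid plexus markers were lower for 3 of 5 and thalamus markers for 4 of 11. None of these markers passed, and the part of the striatum, meninges and thalamus markers was not tested.

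Whether the change under deficiency differed from that after recovery was tested as the difference between the 2 log2 changes. The 2 experiments also differed in age, in ration and in salt timing. The 16-day rats were at the end of a salt test, and the last salt test of the 10-day rats had ended on day 8. These differences cannot be told apart from recovery here. None of the 4 genes passed in limma, against 0% of all genes, and none had an unadjusted p under 0.05, as 6.6% of probe sets did. The interaction was 0.40 ± 0.32 for *Dusp1* (adjusted p = 0.814), 0.23 ± 0.25 for *Fos* (0.868), -0.26 ± 0.24 for *Egr1* (0.839) and -0.23 ± 0.28 for *Nr4a1* (0.879). The 95% intervals reached from -0.81 to 1.08 over the 4 genes. The interaction was below 0 for 5 of 5 striatum, 5 of 5 choroid plexus and 8 of 8 meninges and mural cell markers. It was above 0 for 8 of 11 thalamus markers. None of these markers passed.

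**Figure D2:**
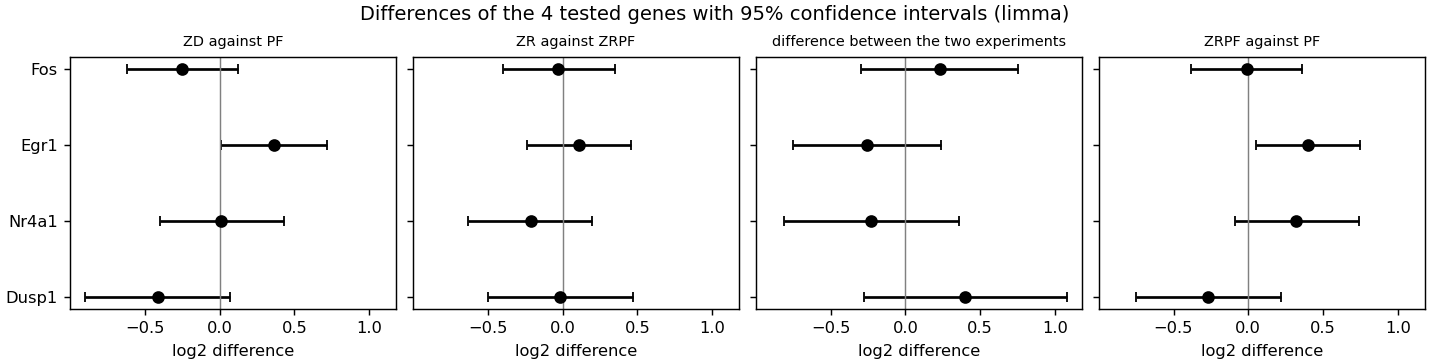
Log2 differences of the 4 tested genes in the 4 comparisons, as points with 95% confidence intervals from limma; the vertical line marks 0. The intervals of *Egr1* for ZD against PF (0.01 to 0.72) and for ZRPF against PF (0.05 to 0.75) lie above 0 before adjustment over the probe sets, and the other 14 cross it.

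The pair-fed controls of the 2 experiments, ZRPF and PF, differ in age, in days on the diets, in ration and in the second salt test, which cannot be told apart here, and they share the PF arrays with ZD against PF. None of the 4 tested genes passed in limma, where 15.4% of 9278 genes did, and 1 had an unadjusted p under 0.05, as did 30.1% of probe sets. That gene was *Egr1*, with 1447 to 1769 in ZRPF and 875 to 1624 in PF, a difference of 0.40 ± 0.17 (adjusted p = 0.111). Without PF rat 1 it was 0.54 and passed (adjusted p = 0.0404), and without PF rat 6 it was 0.24 (0.333). *Nr4a1* stood at 0.32 ± 0.20 (0.289), *Dusp1* at -0.27 ± 0.23 (0.471) and *Fos* at -0.01 ± 0.18 (0.983). Ordered by mean log2 signal, *Egr1* ran from PF (10.25) through ZD (10.61) and ZRPF (10.65) to ZR (10.76). *Fos* ran from ZD (10.13) through ZR (10.35) and ZRPF (10.38) to PF (10.39), and *Dusp1* from ZD (10.37) through ZR (10.50) and ZRPF (10.52) to PF (10.78). *Nr4a1* ran from PF (7.72) through ZD (7.74) and ZR (7.83) to ZRPF (8.05). In each order the mean ± SD of neighbouring groups overlapped.

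Between these controls, hypothalamus markers were higher in ZRPF for 10 of 10 tested genes, with a median log2 difference of 0.39 against -0.01 over all genes. Of these 4 passed, all higher in ZRPF, as did 9.25% of all genes. The signal summed over the 12 hypothalamus markers with a probe set, tested or not, was 30423 to 36123 in PF and 43385 to 48127 in ZRPF. Choroid plexus markers were higher in 5 of 5 tested, with none passing. The 8 with a probe set summed to 978 to 2153 in PF and 1331 to 23268 in ZRPF, and *Ttr* alone had 209 to 1323 and 524 to 21240. Thalamus markers were higher in 4 and lower in 7 of 11, with a median of -0.15. Of these 1 passed, *Synpo2*, lower in ZRPF (-0.31 ± 0.10, limma adjusted p = 0.0462), as did 6.13% of all genes. With the choroid plexus mean as a covariate the differences were 0.42 for *Egr1*, 0.26 for *Nr4a1*, -0.34 for *Dusp1* and 0.11 for *Fos*, and none passed. The part of the hypothalamus and thalamus markers and of the *Actb* ratio in the differences between the controls was not tested.

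The second probe set of *Dusp1* (1368147_at), which lay below the filter, had a Pearson r of 0.77 with the first within groups. It gave larger differences than the first, in the same direction, for ZD against PF, ZR against ZRPF and ZRPF against PF. Its signals were 180, 328, 208 and 242 in PF rats 1, 2, 4 and 6 and 103, 110, 68 and 140 in ZRPF rats 2, 4, 5 and 6. In ZD rats 2, 3, 8 and 9 they were 173, 212, 100 and 122, and in ZR rats 7, 10, 13 and 15 they were 104, 93, 81 and 48. Every ZRPF rat was below every PF rat, 3 of 4 ZD rats were below all PF rats, and ZR held the lowest mean. The log2 difference was -1.19 for ZRPF against PF (-1.35 to -0.98 over the alternatives), and limma with no filter gave an adjusted p of 0.0127 (7.92% of all probe sets were called in that fit), whereas the first probe set stood at -0.27 ± 0.23. Of the 11 probe sets this was the 1 whose ZRPF and PF rats did not overlap, as for 14.9% of all probe sets without a filter. With no filter it stood at -0.68 for ZD against PF (adjusted p = 0.725) and at -0.38 for ZR against ZRPF (adjusted p = 0.939). The ratio of 3' to 5' *Actb* signal, given above, also differed between the PF and ZRPF arrays, and its part in this value was not tested.

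*Arc*, a synaptic protein whose RNA travels into dendrites, had signals of 110 to 129 in PF and 109 to 159 in ZD, and of 124 to 210 in ZRPF and 150 to 218 in ZR. In PF rats 1, 2, 4 and 6 they were 129, 110, 121 and 116, and 3 of the 4 ZRPF rats (188, 145 and 210) were above all of these. With no filter the difference of ZRPF from PF was 0.46 ± 0.18 (limma, adjusted p = 0.138), and those of ZD from PF and ZR from ZRPF were 0.08 ± 0.18 (0.969) and 0.07 ± 0.18 (0.982). *Junb*, the AP-1 subunit, had 64 to 100 in PF, 74 to 107 in ZD, 88 to 114 in ZRPF and 63 to 134 in ZR. In ZR it was 132 and 134 in rats 10 and 15 and 73 and 63 in rats 7 and 13, so the lowest and the highest *Junb* signal of the 16 came from the same group.

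*Ier2* was the steadiest of the genes below the filter, with 110 to 159 in PF, 123 to 152 in ZD, 102 to 154 in ZRPF and 91 to 135 in ZR, and a within-group SD of 0.23 log2 units. *Egr2*, a factor best known in myelination and hindbrain patterning, had 32 to 94 in PF, 44 to 79 in ZD, 45 to 79 in ZRPF and 50 to 63 in ZR on its brighter probe set (1387306_a_at). Its second probe set (1398266_a_at) had signals of 1 to 34 and that of *Fos* (1371283_at) of 2 to 23 over the 16 rats, with within-group SDs of 1.62 and 1.10 log2 units. Between ZR and ZRPF the former differed by 2.25 and the latter by 1.50, with adjusted p of 0.906 and 0.918 in limma with no filter. With 32 added to each signal before the log these differences were 0.36 and 0.27. In none of the 11 probe sets were ZD and PF rats, or ZR and ZRPF rats, apart without overlap, beside 3.73% and 2.98% of probe sets without a filter.

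**Figure D3:**
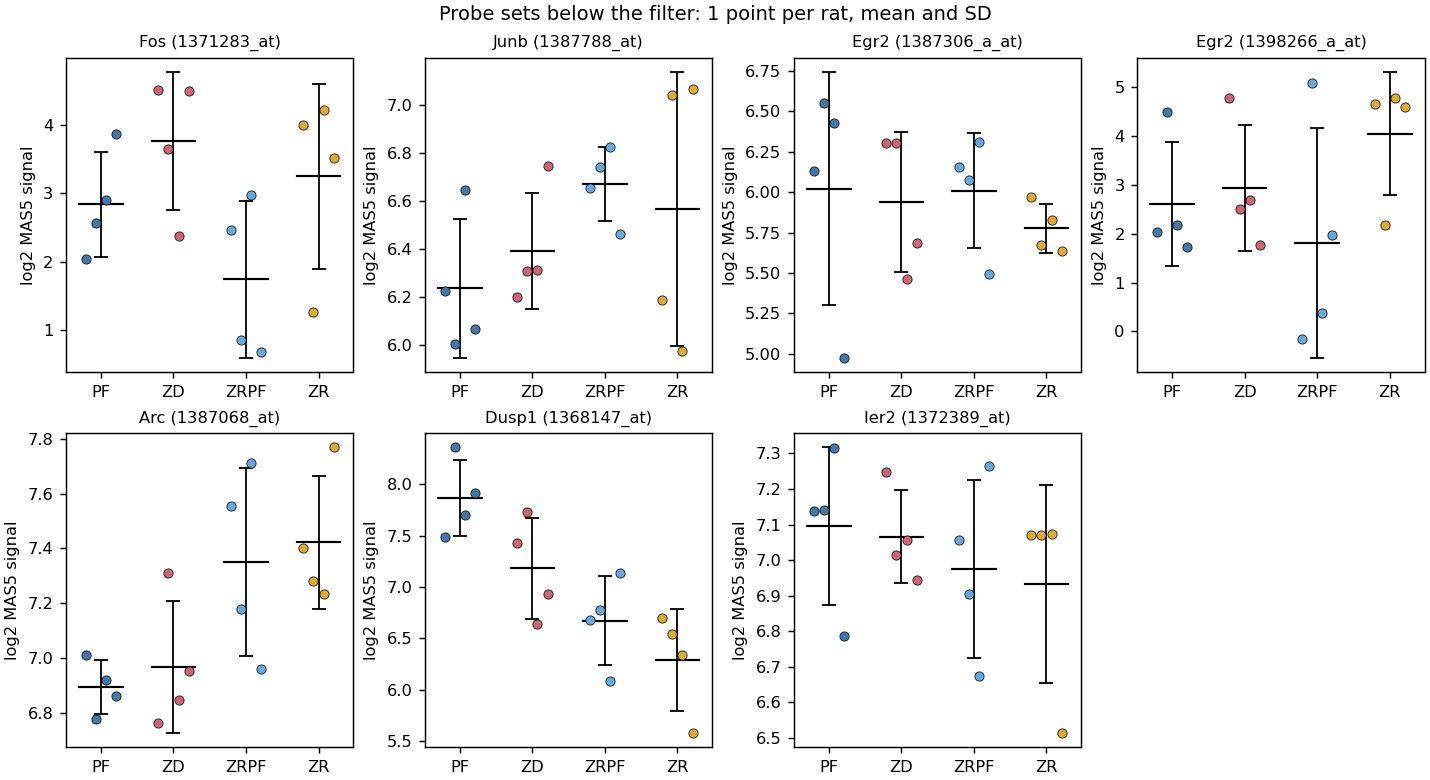
Log2 MAS5 signal of the 7 probe sets below the filter by group, with 1 point per rat, the mean as a line and the SD as a bar, each panel on its own scale. The *Dusp1* probe set is lower in all 4 ZRPF rats than in all 4 PF rats, and points of *Fos* (1371283_at) and *Egr2* (1398266_a_at) spread over several log2 units within a group.

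Of the 6 pairs of tested genes, 1 passed after adjustment for a relation between rats within groups, *Fos* with *Egr1*, and it did so by Pearson's r and not by Spearman's rho. Each log2 signal was set against its group mean, and 22 relations over the 16 rats were tested by permuting rats within groups (100000 resamples, two-sided, adjusted over the 22). *Fos* and *Egr1* had a Pearson r of 0.73 and a Spearman rho of 0.72 (permutation p = 0.00363 and 0.00911, adjusted 0.0406 and 0.0501). The r was 0.61 without ZD rat 2 and ZR rat 7, the rats farthest out in *Fos*, 0.76 in the 10-day and 0.73 in the 16-day rats. The rats farthest out in *Egr1* were not left out for this pair. *Egr1* and *Nr4a1* had an r of 0.76 and a rho of 0.77 (permutation p = 0.0123 and 0.00797, adjusted 0.0629 and 0.0501), with 0.78 without PF rats 1 and 6, and 0.82 and 0.55 in the 2 experiments. For *Fos* and *Nr4a1* the r of 0.64 (rho 0.64, adjusted permutation p = 0.115 and 0.110) was 0.90 in the 10-day rats and 0.19 in the 16-day rats, and 0.40 without ZD rat 2 and ZR rat 7. *Dusp1* had r of 0.31 to 0.56 with the other 3, none past the threshold after adjustment.

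The other transcription factors induced early, from a list of 24 of which 13 were tested, were averaged for each rat. In relations with list means, the rats left out were those farthest out in the single gene, not in the list mean. Most of the spread of this early factor mean lay in ZD. Its deviations were 0.20, 0.17, -0.21 and -0.16 in ZD rats 2, 3, 8 and 9 and -0.07 to 0.09 in the other groups. *Dusp1* followed this mean with an r of 0.85 and a rho of 0.87 (permutation p = 0.00495 and 0.00227, adjusted 0.0406 and 0.0486), 0.77 without ZD rats 3 and 9, and 0.88 and 0.76 in the 2 experiments. *Fos* followed it with an r of 0.71 and a rho of 0.76 (permutation p = 0.00554 and 0.00442, adjusted 0.0406 and 0.0486), 0.63 without ZD rat 2 and ZR rat 7, and 0.85 and 0.51. *Nr4a1* (r = 0.73, rho = 0.76, adjusted permutation p = 0.115 and 0.0830) and *Egr1* (r = 0.57, rho = 0.54, adjusted permutation p = 0.158 and 0.155) did not pass. Their r was 0.82 and 0.65 in the 10-day rats and 0.42 and 0.17 in the 16-day rats. For *Nr4a1* it was 0.73 without PF rat 1 and ZD rat 2, and for *Egr1* 0.72 without PF rats 1 and 6. With the mean of 14 glucocorticoid-induced genes, 1 of which (*Per1*) is in both lists, *Dusp1* had an r of 0.72 and a rho of 0.68 (permutation p = 0.0152 and 0.0302, adjusted 0.0629 and 0.0830). It was 0.60 without ZD rats 3 and 9, and 0.81 and 0.53 in the 2 experiments. For *Fos*, *Egr1* and *Nr4a1* the r with glucocorticoid-induced genes was 0.10, -0.22 and 0.20. Whether these differed from that of *Dusp1* was not tested. Further lists were compared by r alone, without a test. With 18 rapidly induced effectors and feedback inhibitors, which share *Sgk1* and *Errfi1* with the glucocorticoid list, *Dusp1* had an r of 0.78. *Fos*, *Egr1* and *Nr4a1* had 0.24, -0.02 and 0.44 with them. With 17 upstream kinases and factors the r was 0.73 for *Nr4a1* and 0.40 to 0.50 for the other genes. Over the remaining lists compared in this way r ran from -0.39 to 0.51. With cortex and hippocampus markers *Egr1* had an r of 0.67 and a rho of 0.57 (adjusted permutation p = 0.0839 and 0.110), 0.53 without PF rats 1 and 6, and it was 0.89 in the 10-day and -0.09 in the 16-day rats. The other 3 genes had r of 0.24 to 0.43 with these markers. With striatum markers *Nr4a1* had an r of 0.67 and a rho of 0.65 (adjusted permutation p = 0.0629 and 0.0822), 0.64 without PF rat 1 and ZD rat 2, and 0.78 and 0.41 in the 2 experiments. *Egr1* had 0.59 and 0.51 with them (adjusted permutation p = 0.115 and 0.142), and *Fos* and *Dusp1* had r of 0.20 and 0.32.

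**Figure D4:**
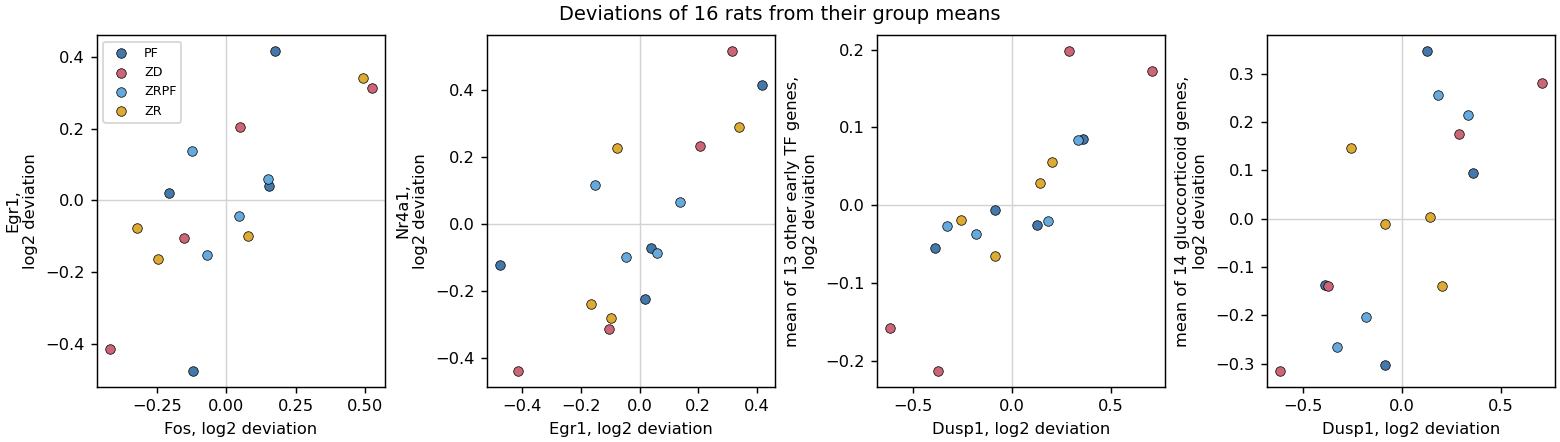
Deviations of the log2 signal from the group mean in the 16 rats, coloured by group: *Fos* against *Egr1* (r = 0.73), *Egr1* against *Nr4a1* (r = 0.76), and *Dusp1* against the means of 13 other early transcription factor genes (r = 0.85) and of 14 glucocorticoid-induced genes (r = 0.72). ZD rats 3 and 9 lie farthest out along the *Dusp1* axis.

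The genes whose deviations were most like the mean of the 4 tested genes over the 16 rats, out of 9274 compared, were *Tln1* (r = 0.86), *Zfp146* (0.85), *Fam222b* (0.84), *Klf4* (0.82), *Rgs7bp* (0.82) and *Csrnp3* (0.82), a description with no test. All values come from arrays scaled to the same trimmed mean. *Klf4*, a zinc finger factor that is itself induced early, was the 1 of the 6 on the lists of related genes. Between the controls it was higher in ZRPF, with 313 to 357 in PF and 435 to 490 in ZRPF (log2 difference 0.49 ± 0.10, limma adjusted p = 0.00201). Its differences in ZD against PF and ZR against ZRPF were 0.21 ± 0.10 (0.615) and -0.07 ± 0.10 (0.955).

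Of the 13 other early transcription factors tested none passed for ZD against PF or ZR against ZRPF in limma. Their median log2 differences were -0.03 and -0.10, beside 0.02 and -0.01 over all genes, with 6 and 4 of the 13 higher, against 55.6% and 46.9% of all genes. The smallest p in ZD against PF belonged to *Jund* (0.23 ± 0.08, adjusted p = 0.506), *Nr4a3* (-0.52 ± 0.22, 0.585) and *Nfil3* (-0.65 ± 0.29, 0.602). Between the controls 2 of 13 passed, 1 in each direction, against 9.25% of all genes higher and 6.13% lower. Over probe sets 39.3% of the calls were lower, or 68.8% when each array was centred on its median. These were *Klf4* and *Jun*, the AP-1 subunit that pairs with *Fos*, which was lower in ZRPF (868 to 963) than in PF (1181 to 1271), by -0.39 ± 0.09 (adjusted p = 0.0061).

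Of 18 tested effectors and feedback inhibitors none passed for ZD or ZR against their controls, with medians of -0.07 and -0.03. *Ier5*, a relative of *Ier2*, had the smallest p in ZD against PF (0.46 ± 0.13, limma adjusted p = 0.318), followed by *Sgk1* (-0.92 ± 0.39, 0.585), a kinase induced by glucocorticoids and salt. Between the controls 1 of 18 passed, against 15.4% of all genes. This was *Spry2*, an inhibitor of growth factor signalling (-0.32 ± 0.11, adjusted p = 0.046). The 11 late genes, which follow activity by hours, had medians of 0.02 and -0.02 with none passing in either comparison, and between the controls 1 of 11 passed, against the same 15.4%. This was *Bdnf*, a neurotrophin, with 215 to 271 in PF and 284 to 396 in ZRPF (0.44 ± 0.13, adjusted p = 0.0316).

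Of 17 upstream kinases and factors none passed for ZD or ZR, with medians of -0.04 and 0.08. Between the controls 4 of 17 passed, 3 higher and 1 lower, against 9.25% and 6.13% of all genes. The CREB coactivators *Crtc1* (0.48 ± 0.14, limma adjusted p = 0.0259) and *Crtc2* (0.43 ± 0.14, 0.046) and the protein kinase A subunit *Prkaca* (0.37 ± 0.12, 0.0457) were higher in ZRPF. The transcription factor *Mef2a* (-0.25 ± 0.08, 0.0491) was lower. The glucocorticoid-induced genes, to which *Dusp1* is related by its regulation, were lower in 14 of 14 tested for ZD against PF. They were also lower in 14 of 14 for ZR against ZRPF, where 55.6% and 46.9% of all genes were higher in the 2 comparisons. Their medians were -0.37 and -0.29, and none passed in limma. *Dusp1* itself stood at -0.41 and -0.02. Between the controls 1 of 14 passed, against 15.4% of all genes. This was *Fam107a* (0.43 ± 0.14, adjusted p = 0.0462). The pattern of lower values in this list was known from earlier results of these data and is no independent support.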

How the data were processed

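The authors deposited linear signal intensities made with MAS5, per the labels and the submitters' processing notes (version not given in the sources used here), 1 per probe set and array, from total RNA amplified with a 3' primed kit. MAS5 detection calls were not used here. Of 31099 probe sets, 57 controls were set aside. The rest were taken as log2 with no offset, named by the platform table joined by gene identifier to RefSeq (1 gene for 20826, several for 436, none for 9780), and tested where the mean log2 signal was at least 7.35, which left 15521. Each gene was counted by its brightest tested probe set (9278 genes).

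One limma model (version 3.58.1, R 4.3.3) held all 4 groups, its prior variance following mean signal; tests were two-sided, with Benjamini-Hochberg adjustment and a threshold of 0.05. The number of rats limits the precision. The fit was tested on simulated data. Relations between genes were computed in Python 3.11.15. A rat number shared by PF and ZRPF does not mark 1 animal, and no pairs were formed from it. Genes named beside the 9 were up to 3 per list and comparison by smallest p, those past the threshold in a list, and the 6 most like the tested genes. The 9 genes, the lists and the comparisons were chosen with earlier results of these data known.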

Additional observations from a re-analysis of the deposited data

Results flagged for a closer look

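In 44 sets of 4 rats (11 probe sets in 4 groups), 3 held a rat far from the other rats of its group, where chance gives about 1 in 20. All 3 lay on probe sets below the filter. For *Ier2*, ZR rat 15 stood at 6.51 on the log2 scale, and the remaining ZR rats at 7.07. For the second probe set of *Egr2* (1398266_a_at), PF rat 2 had 4.49 and the others 1.73 to 2.16, while ZR rat 10 had 2.17 and the others 4.59 to 4.77.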

How the results depend on the processing

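For the 4 tested genes, 16 differences were recomputed under the alternatives, giving 324 values, of which 290 kept their direction and their side of the threshold, 32 changed sign and 2 passed. The 2 that passed were those of *Egr1* for ZRPF against PF without PF rat 1 (0.54) and with the replicate block over rats 2, 4 and 6 (0.50, adjusted p = 0.0213), so 1 of the tested genes was called there. That block gave 1085 called probe sets in place of 2430. The deviations of same-numbered PF and ZRPF rats had correlations of 0.079, 0.020 and 0.035, and those of differently numbered rats ran from -0.096 to 0.078. These correlations were not tested. The numbers belong to different rats and were not read as pairs. PF rats 2 and 6 correlated best with their own number, PF rat 4 with ZRPF rat 5 (0.032), and ZRPF rat 6 with PF rat 2 (0.052). The choroid plexus covariate gave 1324, leaving out 1 array 1681 to 2264. Median centring gave 3121, of which 68.8% were lower in ZRPF, against 39.3% of 2430 without it and 44.2% after quantile normalization.

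None of the values that changed sign passed the threshold. Without ZD rats 8 and 9 (chosen after the data were seen), *Dusp1* went from -0.41 to 0.08 for ZD against PF and from 0.40 to -0.10 for the interaction, and *Fos* from -0.25 to 0.03 and from 0.23 to -0.06. For ZR against ZRPF, *Dusp1* ran from -0.13 to 0.09 on leaving out 1 array and was 0.03 with the cortex covariate, *Fos* ran from -0.19 to 0.08 and was 0.00 with array weights and 0.01 with that covariate, and *Egr1* ran from 0.00 to 0.16. The interaction of *Egr1* went from -0.26 to 0.01 with the cortex covariate. *Fos* in ZRPF against PF ran from -0.08 to 0.05 and was 0.11 with the choroid plexus covariate, 0.01 after quantile normalization and 0.09 with the replicate block. *Nr4a1* in ZD against PF ran from -0.16 to 0.16 and was -0.04 and -0.11 with the choroid plexus and cortex covariates, -0.03 after median centring and -0.01 after quantile normalization. The cause was not tested.

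Over all probe sets, ZD against PF gave 0 to 3 calls on leaving out 1 array and 1 without ZD rats 8 and 9, and the interaction gave 0 to 1. ZR against ZRPF, with 1 call, gave 0 to 9 on leaving out 1 array and 0 with the stricter filter on brightness, no filter, no intensity trend, its own 8 arrays or quantile normalization. None of these touched the 4 genes. Leaving out 1 array called 0 to 1 of them in ZRPF against PF. *Nr4a1* did not pass the stricter filter and has no value there.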
